A study of Homo sapiens with 42 samples.

Results

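The T-cell receptor gamma (TRG) locus encodes the gamma chain of the gamma-delta T-cell receptor. It was followed here through 7 of its transcripts, the constant segments TRGC1 and TRGC2, the joining segments TRGJP1, TRGJP and TRGJP2, and the variable segments TRGV9 and TRGV10. These 7 were selected on measured values, because TRGJP1 counts were lower in MV4;11 cells after 6 h of MS41. They are 7 of the 58721 gene entries in the count tables and 7 of the 21 TRG segments annotated at the locus. All 7 had an entry in each of the 4 tables and matched GENCODE release 29 by symbol. Values from the 6 h libraries that involve DMSO or MS41 are therefore given as description, without a test. The tests compare other libraries. The fit of the compound libraries still takes its estimate of the spread from all 24, the 6 h libraries included.

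The study examined a small-molecule degrader of ENL, a chromatin reader that recruits transcription elongation factors and is encoded by MLLT1. MV4;11, an acute myeloid leukaemia line carrying an MLL-AF4 fusion and labelled WT throughout, was treated in culture with DMSO, with the degrader MS41, with its control compound MS41N or with PFI-6, an inhibitor of the YEATS reader domain of ENL. The dose was 100 nM throughout, cells were harvested at 6 h or 24 h, and every condition has 3 libraries. MS41N is the spelling in the titles, and the description of the treatment has MS47N. MV4;11 cells with a control guide (Negsg) or with 1 of 2 guides against ENL (ENLsg1 and ENLsg2) gave 2 libraries each, with no time or clone in the labels. Further MV4;11 cells, labelled in vivo and WT, came from a xenograft mouse model with vehicle or MS41 (3 libraries each, no dose or time in the labels) and were prepared with a low-input SMART-Seq v4 kit. SEMK2, a B-cell precursor leukaemia line labelled WT that also carries MLL-AF4, was treated with DMSO or 100 nM MS41 (3 libraries each, time not given). The labels do not say whether replicates were separate cultures or animals, so p-values measure only the spread between these samples, which may be technical.

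In developing T cells the recombinase joins a variable to a joining segment of the TRG locus, and the joined exon is spliced to a constant segment to encode the receptor chain. The human locus holds a row of variable segments followed by a pair of cassettes. The first cassette carries TRGJP1, TRGJP, TRGJ1 and TRGC1, and the second carries TRGJP2, TRGJ2 and TRGC2. Unrearranged segments can be transcribed from their own promoters, and such germline transcripts are known from lymphoid precursors before recombination. Counts per gene do not tell a germline transcript from a rearranged one.

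On GRCh38 the 21 segments lie on the minus strand of chromosome 7 between 38239580 and 38368169, a stretch of 128.6 kb. TRGC1 occupies 38257879 to 38265678 with 2730 exonic bases, and TRGC2 occupies 38239580 to 38249572 with 1013. TRGV9 lies at 38317017 to 38318861 (1735 exonic bases) and TRGV10 at 38299811 to 38300322 (512). No exon of a locus gene overlaps an exon of another annotated gene on either strand. The 2 constant segments are close copies: their longest transcripts were identical at 954 of 965 aligned bases (98.9%), and 16.1% of the 50-base stretches of TRGC1 and 44.7% of those of TRGC2 occur in the other gene. The split of reads between TRGC1 and TRGC2 is thus uncertain. None of the 50-base stretches of the other 5 members occurs in another gene. TARP, an alternate reading frame within the TRGC1 exons, has no entry of its own in the tables.

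The joining segments are single short exons, and their sequences (GENCODE transcripts, GRCh38, chromosome 7, minus strand, 5′ to 3′) show how far reads from the 2 cassettes can be told apart. TRGJP1 lies at 38276259 to 38276318, TRGJP2 at 38256337 to 38256396 and TRGJP at 38273587 to 38273647. Capitals mark the 11 of 60 positions at which TRGJP1 and TRGJP2 differ (81.7% identical, with a longest shared run of 15 bases).
TRGJP1: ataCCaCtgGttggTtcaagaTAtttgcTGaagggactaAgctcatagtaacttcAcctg
TRGJP2: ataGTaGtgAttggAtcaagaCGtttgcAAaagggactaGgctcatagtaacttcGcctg
TRGJP: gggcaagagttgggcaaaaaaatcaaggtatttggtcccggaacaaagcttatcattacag
By contrast TRGJ1 (38269491 to 38269540) and TRGJ2 (38253380 to 38253429), which are not members, are listed with 1 and the same 50-base sequence, so their counts cannot be assigned to a cassette from that exon alone.
TRGJ1 and TRGJ2: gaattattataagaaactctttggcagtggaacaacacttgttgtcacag

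The summed counts of a library lay between 102345811 and 156479711 for MV4;11 with compounds, 77216662 and 87813453 with guides, 99485164 and 126740852 in vivo, and 155911682 and 230637548 for SEMK2. Levels are CPM, the counts divided by the library size after scaling by TMM factors, in the usual unit. A difference is a log2 fold change, printed with its SE, and a gene is called when its adjusted p from edgeR's quasi-likelihood test, with Benjamini-Hochberg adjustment over all genes tested, is under 0.05. The cells carried the markers of their lineages. Summed CPM of 12 myeloid markers was 2152 to 2163 in MV4;11 with DMSO at 24 h and 137.2 to 179.6 in SEMK2 with DMSO, while 10 B-lineage markers summed to 6.11 to 7.11 and 1787 to 1898 CPM. MLLT1 measured 223 and 249.8 CPM with the control guide, 181.1 and 190.1 with ENL guide 1, and 123.2 and 127.5 with ENL guide 2, and was called lower with each guide (adjusted p = 0.01218 and 1.796e-05).

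TRG transcripts were abundant in untreated MV4;11. With DMSO at 24 h TRGC1 stood at 319.2 ± 6.81 CPM (SD, n = 3), TRGC2 at 115.6 ± 3.85, TRGJP1 at 23.5 ± 0.812, TRGV9 at 15.9 ± 1.04, TRGJP2 at 10.7 ± 0.187, TRGV10 at 5.16 ± 0.333 and TRGJP at 0.400 ± 0.0703. Per kb of exon, the scale on which genes can be compared, the order was TRGJP1 (391.8 CPM per kb), TRGJP2 (178.7), TRGC1 (116.9), TRGC2 (114.1), TRGV10 (10.1), TRGV9 (9.14) and TRGJP (6.56). The libraries of TRGC1 and TRGC2 overlapped on this scale, as did those of TRGV10 and TRGV9. Reads that begin outside an exon can still overlap it, so values per kb of exons as short as the joining segments are not on the same footing as those of longer ones. In these libraries the partners needed for a receptor were nearly absent. Of 9 genes for other receptor chains and CD3, all 9 were under 0.1 CPM in MV4;11 with DMSO at 24 h, and CD3D, CD3E and CD3G had no count in those 3 libraries. This did not hold in the guide libraries. With the control guide the 9 genes summed to 3.02 to 4.58 CPM. TRAC, TRDC and PTCRA were not under 0.1 CPM there, and 2 of the 9 stood at 1 CPM or more. Of 20 T and NK cell markers, 16 were under 0.1 CPM with DMSO at 24 h. Of 12 recombination genes, 2 (RAG2 and DNTT) were under 0.1 CPM in the same libraries, and 8 stood at 1 CPM or more. The list includes end-joining genes, so these counts do not tell whether the recombinase was present.

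**Figure D1:**
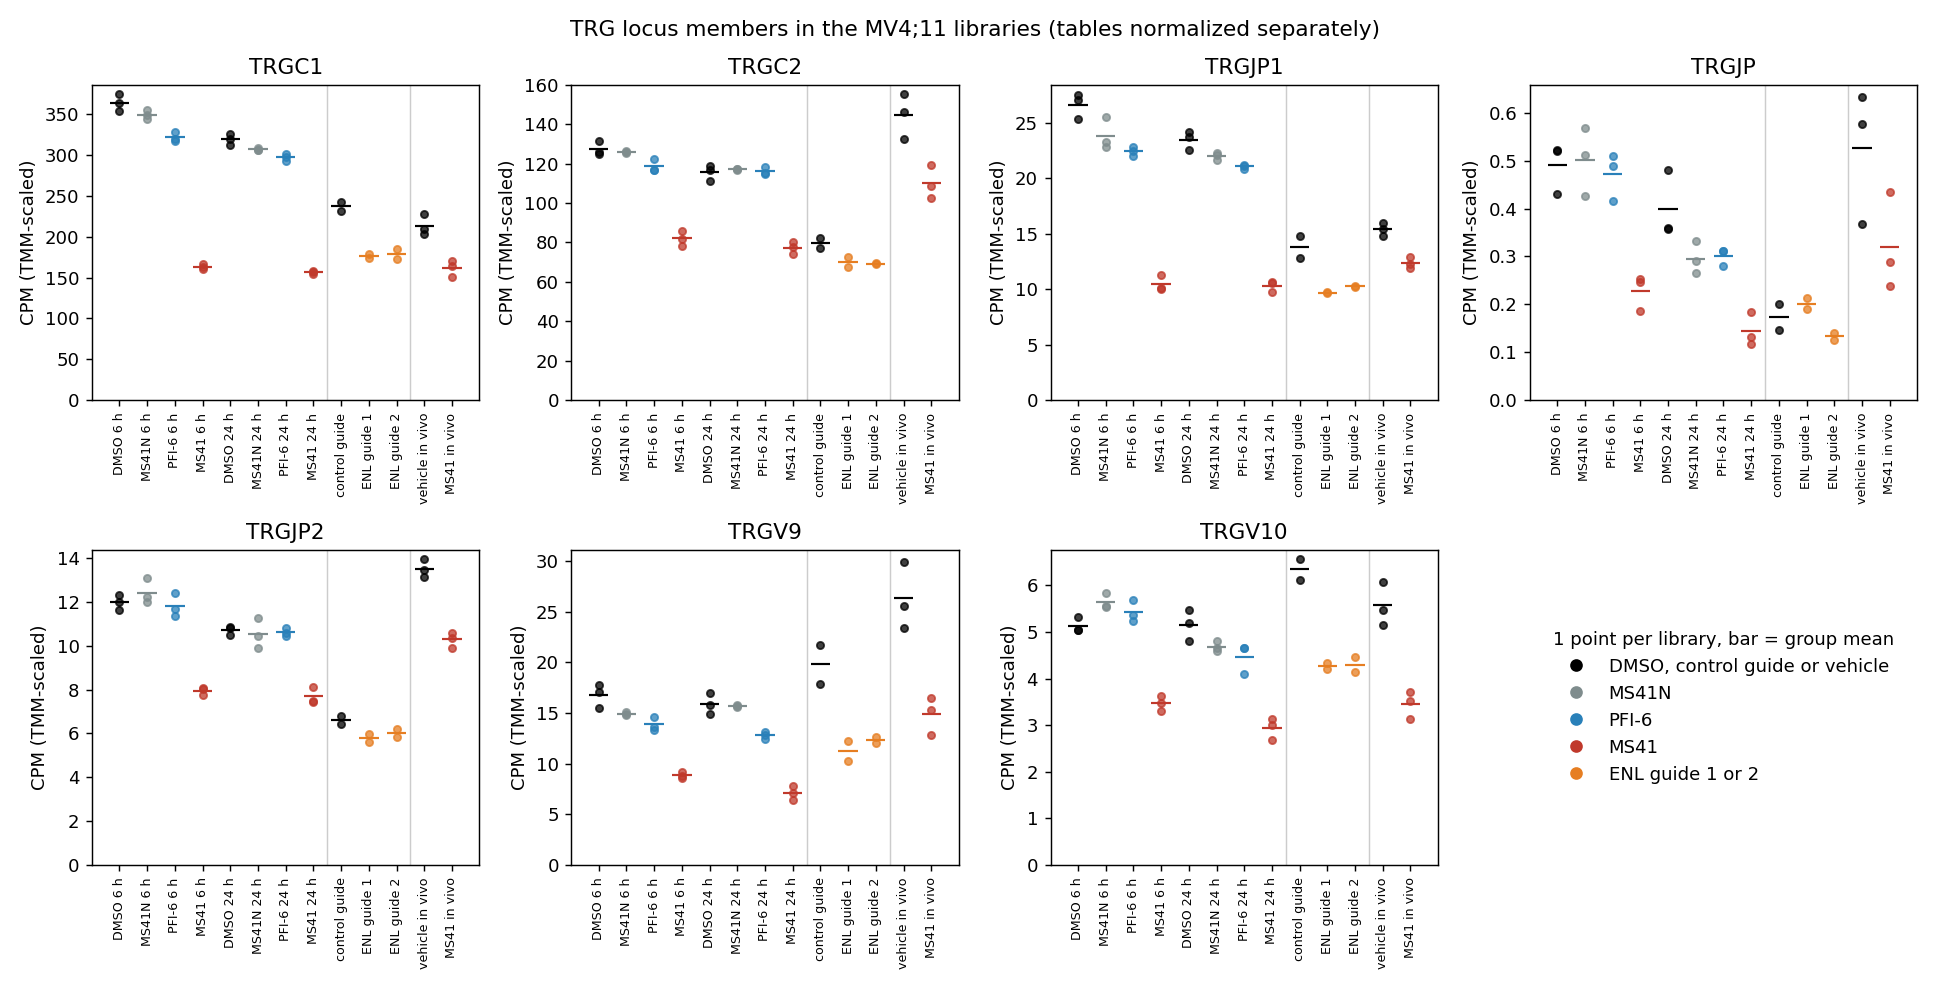
CPM of each member (y axes, starting at 0) in each MV4;11 library, with 1 point per library and a bar at the group mean. The tables were normalized separately, so levels are compared within the areas between grey lines. MS41 libraries at 24 h lie below all DMSO, MS41N and PFI-6 libraries of that time for all 7 members. The share of all genes for which this holds was not computed, and nothing is read from it.

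In the 6 h libraries, on which the choice was made, TRGJP1 measured 25.4, 27.04 and 27.5 CPM with DMSO and 11.3, 10.1 and 9.99 with MS41. The groups do not overlap, and the log2 fold change was -1.35. TRGC1 measured 353.6, 364.2 and 374.8 CPM with DMSO and 160.4, 166.5 and 163.4 with MS41, a log2 fold change of -1.16. The values of the other 5 members lay between -1.11 (TRGJP) and -0.57 (TRGV10). For all 7 members every MS41 library lay below every DMSO library, as was the case for 18.6% of the 22711 genes tested, and nothing is read from that count. At the same time TRGJP1 stood at 22.0, 22.8 and 22.5 CPM with PFI-6 and at 25.5, 23.2 and 22.8 with MS41N. Its log2 fold changes against DMSO were -0.25 for PFI-6 and -0.16 for MS41N, and the MS41N libraries overlapped those with DMSO.

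After 24 h of MS41 all 7 members were called lower than with DMSO, where 22.9% of the 22711 genes tested were called lower. The median of the 7 log2 fold changes was -1.03, against 0.024 over all genes tested. TRGC1, the constant segment of the first cassette, fell from 312.2, 325.8 and 319.6 CPM to 156.6, 157.5 and 154.9. The libraries of each group lie within a few percent of one another, and the log2 fold change was -1.03 (SE 0.0247, adjusted p = 2.523e-33). TRGC2, the constant segment of the second cassette, fell from 111.3, 116.9 and 118.7 CPM to 77.5, 80.4 and 74.2. Its log2 fold change of -0.58 (SE 0.0316, adjusted p = 2.475e-20) had a 95% interval of -0.64 to -0.52, outside the interval of -1.08 to -0.98 for TRGC1.

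Among the joining segments at 24 h, TRGJP1 measured 23.7, 22.6 and 24.2 CPM with DMSO and 10.54, 9.78 and 10.6 with MS41. Every MS41 library lay below every DMSO library, and the log2 fold change was -1.19 (SE 0.0529, adjusted p = 1.544e-23). TRGJP2, its counterpart in the second cassette, measured 10.9, 10.8 and 10.51 CPM with DMSO and 8.14, 7.46 and 7.45 with MS41. It fell by 0.48 on the log2 scale (SE 0.0628, adjusted p = 9.713e-09). TRGJP rested on few reads, 42, 58 and 50 counts with DMSO and 24, 16 and 16 with MS41. It was called lower at -1.46 with the widest interval of the 7 members (-2.07 to -0.85).

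The variable segments fell as well. TRGV9, which is joined in the most common gamma-delta T cells of adult blood, measured 16.9, 14.9 and 15.8 CPM with DMSO and 7.79, 7.11 and 6.38 with MS41. Its groups do not overlap, and its log2 fold change was -1.16 (SE 0.0646, adjusted p = 5.434e-20). TRGV10 measured 5.20, 4.803 and 5.46 CPM with DMSO and 2.69, 2.99 and 3.12 with MS41, a log2 fold change of -0.82 (SE 0.0889, adjusted p = 9.964e-11). All 7 calls were kept in a fit of the DMSO and MS41 libraries at 24 h alone, without the low-count filter, with other scaling factors, with DESeq2, and without any 1 of the libraries compared. Summed CPM of the 12 myeloid markers was 2152 to 2163 with DMSO and 3269 to 3459 with MS41 at 24 h, with 2 markers called lower and 8 higher. The part of this shift in the TRG values was not tested. In bulk libraries fewer cells with a transcript and less transcript per cell cannot be told apart.

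MS41N was compared at the same dose and time. None of the 7 members was called against DMSO at 24 h by edgeR, where 0.0176% of genes were called lower, and DESeq2 called none. At an unadjusted p under 0.05, 1 member was lower, a count without the share of all genes beside it, from which nothing is read. TRGJP1 measured 22.3, 21.7 and 22.1 CPM with MS41N, just below the lowest DMSO library, and its difference of -0.093 had a 95% interval of -0.20 to 0.0082. The interval for TRGC1 was -0.11 to -0.0070. Set directly against MS41N, MS41 gave lower calls for all 7 members (21.9% of genes called lower), with log2 fold changes from -1.14 (TRGV9) to -0.45 (TRGJP2) and -1.10 for TRGJP1. The comparisons with DMSO at 24 h share the same 3 DMSO libraries.

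PFI-6 gave smaller differences. Against DMSO at 24 h, 3 of the 7 members were called lower, where 6.78% of genes were. TRGV9 measured 13.1, 12.5 and 12.8 CPM, below all 3 DMSO libraries, a log2 fold change of -0.31 (SE 0.0621, adjusted p = 0.0006281). TRGC1 measured 292.5, 301.7 and 297.6 CPM, a log2 fold change of -0.10 (SE 0.0243, adjusted p = 0.003114). TRGJP1 measured 20.8, 21.2 and 21.3 CPM, a log2 fold change of -0.16 (SE 0.0505, adjusted p = 0.03252). DESeq2 called TRGV10 lower as well (-0.20, adjusted p = 0.04703, against 0.1164 by edgeR). The call of TRGJP1 was lost without DMSO replicate 1 (adjusted p = 0.08923) or 3 (0.1693), without PFI-6 replicate 1 (0.1066), 2 (0.09044) or 3 (0.05973), and without the low-count filter (0.05244). TRGC2 stood at 0.0074 with an interval of -0.056 to 0.070, so a fall of the size seen with MS41 lies outside it.

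MS41 and PFI-6 differed directly at 24 h in all 7 members (21.6% of genes called lower with MS41), with log2 fold changes from -1.06 (TRGJP) to -0.47 (TRGJP2). PFI-6 and MS41N differed little. At 24 h, 1 of the 7 members was called lower with PFI-6, where 0.0616% of genes were: TRGV9, at -0.29 (SE 0.0621, adjusted p = 0.03479). That call was lost without any 1 of the 6 libraries, namely MS41N replicate 1, 2 or 3 and PFI-6 replicate 1, 2 or 3, with adjusted p-values from 0.07485 to 0.3217. At 6 h edgeR called no member (0.0132% of genes called lower), and DESeq2 called TRGC1 alone. By edgeR 2 members were lower at an unadjusted p under 0.05, again without the share of all genes, and nothing is read from that. TRGC1 then measured 316.7, 319.8 and 328.8 CPM with PFI-6 and 355.5, 343.8 and 349.3 with MS41N (log2 fold change -0.12, adjusted p = 0.05988). The change of the difference between PFI-6 and MS41N from 6 to 24 h was tested as an interaction in the same edgeR fit, and for TRGV9 it was -0.18 (SE 0.0874). The adjusted p of the 7 members in that test was 0.996 or higher.

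**Figure D2:**
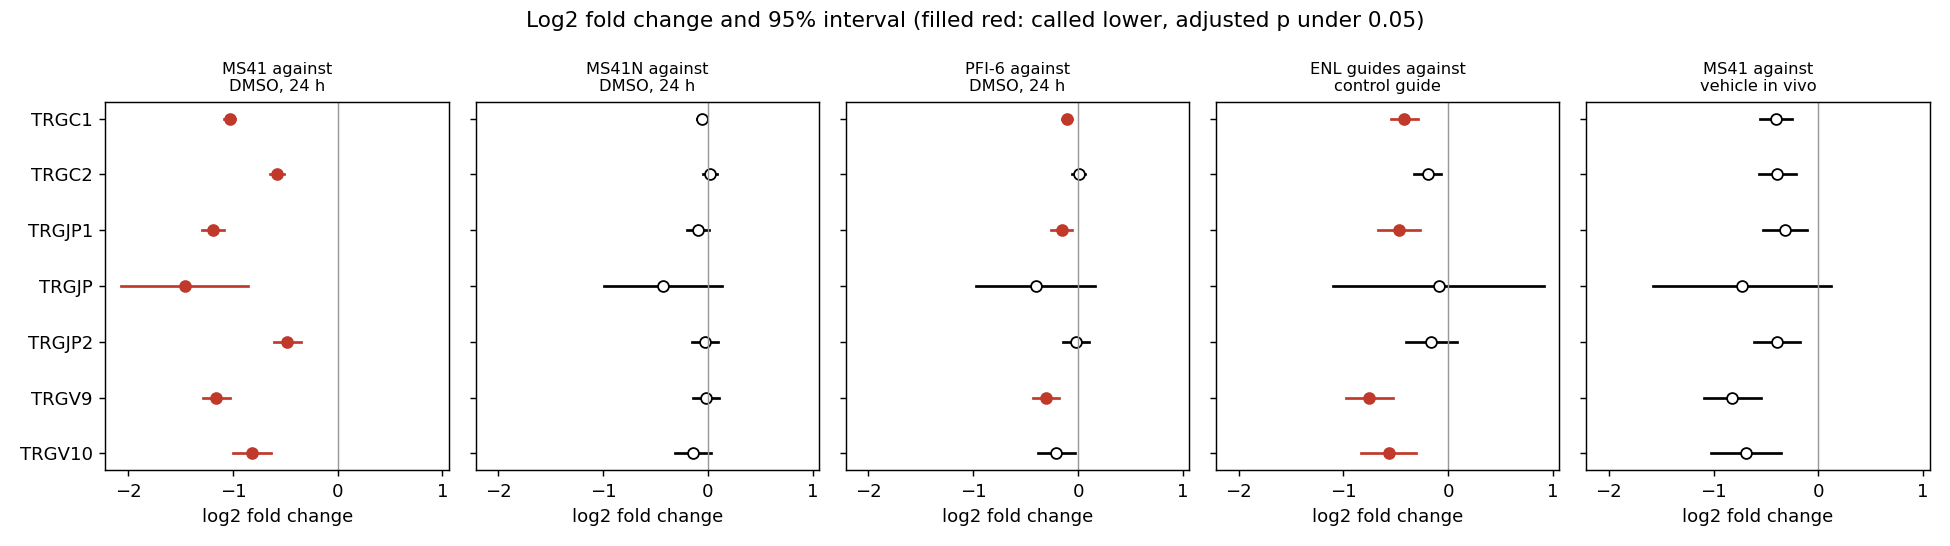
Log2 fold change (x axis) of the 7 members (rows) with its 95% interval in 5 comparisons. Filled red points were called lower: 7 with MS41 at 24 h, none with MS41N, 3 with PFI-6, 4 with the ENL guides and none in vivo.

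Part of the TRG transcripts were lower with guides against ENL. Over both guides 4 of the 7 members were called lower than with the control guide, where 4.98% of the 17984 genes tested were. TRGV9 measured 21.7 and 17.9 CPM with the control guide, 12.2 and 10.3 with guide 1, and 12.6 and 12.04 with guide 2. No guide library reaches the control libraries, and the log2 fold change was -0.75 (SE 0.102, adjusted p = 0.000631). TRGC1 measured 231.9 and 242.9 CPM with the control guide, 179.4 and 173.4 with guide 1, and 184.6 and 172.4 with guide 2, a log2 fold change of -0.42 (SE 0.0588, adjusted p = 0.0007644).

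TRGJP1 measured 12.8 and 14.8 CPM with the control guide, 9.62 and 9.70 with guide 1, and 10.2 and 10.3 with guide 2, a log2 fold change of -0.47 (SE 0.0934, adjusted p = 0.007408). Without control guide replicate 2 this call was lost (-0.35, adjusted p = 0.1048). TRGV10 measured 6.57 and 6.11 CPM with the control guide, 4.32 and 4.19 with guide 1, and 4.13 and 4.46 with guide 2, a log2 fold change of -0.57 (SE 0.119, adjusted p = 0.009644). Of the members not called, TRGC2 had a log2 fold change of -0.20 (interval -0.32 to -0.066, adjusted p = 0.05635), TRGJP2 of -0.16 (-0.41 to 0.080) and TRGJP of -0.091 (-1.10 to 0.91), the last from 11 to 19 counts per library. DESeq2 called TRGC2 too (adjusted p = 0.0441), as did the fit with a replicate block (0.0208).

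Each guide alone gave calls for TRGC1, TRGJP1, TRGV9 and TRGV10. With guide 1, 4 of 7 members were called lower (3.14% of genes), with TRGV9 at -0.82 and TRGJP1 at -0.51. With guide 2, 4 of 7 were called lower (1.76% of genes), with TRGV9 at -0.69 and TRGJP1 at -0.43. Both share the 2 control guide libraries, and the number of all genes called lower moved with the library left out. With 2 libraries a group the count of members called was sensitive as well. For guide 1 it was 2 without control guide replicate 2, ENLsg1 replicate 1 or ENLsg1 replicate 2. For guide 2 it was 2 without control guide replicate 2 or ENLsg2 replicate 1, and 0 without ENLsg2 replicate 2.

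In the xenograft libraries no member was called by edgeR, where 0.0328% of the 21337 genes tested were called lower, although all 7 log2 fold changes were below 0 with a median of -0.40 (-0.0011 over all genes tested). At an unadjusted p under 0.05, 6 members were lower. The share of all genes at that threshold was not computed, so nothing is read from this count. TRGV9 measured 25.6, 23.4 and 30.0 CPM with vehicle and 15.3, 16.5 and 12.9 with MS41 (log2 fold change -0.82, SE 0.122, adjusted p = 0.06975). TRGC1 measured 203.3, 209.5 and 228.3 CPM with vehicle and 169.7, 164.2 and 151.2 with MS41 (-0.40, SE 0.0694, adjusted p = 0.1701). TRGJP1 measured 14.8, 15.4 and 16.0 CPM with vehicle and 12.9, 12.3 and 11.9 with MS41 (-0.32, SE 0.0954, adjusted p = 0.5271). The groups do not overlap for these 3 members, nor for TRGC2, TRGJP2 and TRGV10. The share of all genes without overlap was not computed, so nothing is read from this. In the deposited values the vehicle and MS41 libraries of the same number deviate in opposite directions (correlations of -0.98 to -0.95), so the fit keeps the replicate number and has 2 residual degrees of freedom. The main fit called 7 genes lower in all. Without that term 5 members were called lower, among 250 genes. That fit treats the libraries as independent, which their opposite deviations go against. DESeq2 with the term called 4 of the 6 members to which it gave an adjusted p, among 49 genes. Without the low-count filter edgeR called 4, among 109 genes. Leaving out vehicle replicate 1 or MS41 replicate 1 gave 3 calls, among 32 and 33 genes. Leaving out vehicle replicate 2 or MS41 replicate 2 gave 1, among 14 and 8 genes.

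SEMK2 cells had almost none of these transcripts. TRGC1, TRGJP1, TRGJP, TRGJP2 and TRGV10 had 0 counts in all 6 SEMK2 libraries. TRGC2 had 4 counts, all in DMSO replicate 2. TRGV9 had 2, 1 and 4 counts with DMSO and 9, 4 and 9 with MS41. No member passed the low-count filter, so none is among the 21433 genes tested for MS41 in SEMK2, of which 0.518% were called lower (111 genes, and 1694 without DMSO replicate 3). Without the filter edgeR tested TRGC2 and TRGV9 alone, since the other 5 had no count. TRGV9 had a log2 fold change of 1.71 (SE 1.35, adjusted p = 0.6956) and TRGC2 an adjusted p of 0.5873. Against a limit of 3 counts over the 3 SEMK2 DMSO libraries (0.00545 CPM of unscaled totals), MV4;11 cells with DMSO at 24 h were at least 57630-fold higher in TRGC1, at least 4248-fold in TRGJP1, at least 1934-fold in TRGJP2, at least 933.3-fold in TRGV10 and at least 71.9-fold in TRGJP. This limit covers counting error only, and the 2 lines were processed as separate tables.

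The segments without a count in SEMK2 were neighbours. In gene order, 9 TRG segments in a row from TRGJ2 to TRGV10 (38253380 to 38300322, 46.94 kb) had no count in any of the 6 libraries, among them TRGV11, which had 1 count in the 3 MV4;11 DMSO libraries at 24 h. The genes next to this run were nearly absent too, with 4 counts over the 6 libraries for TRGC2 on one side and, on the other, 25 for the pseudogene AC006033.1, 29 for TRGV9 and 3 for TRGVA. TRGV6, farther out, had 1. Higher counts lay beyond. STARD3NL, the flanking gene beyond TRGC2 and a late endosomal protein, had 27651 counts. On the other side TRGV8 had 94 counts, TRGV3 had 1466 and TRG-AS1, a long non-coding RNA on the opposite strand, had 3604. In the 3 DMSO libraries TRG-AS1 stood at 3.51 CPM in SEMK2 and 3.55 in MV4;11, and TRGV3 at 1.23 and 0.736. Of the 10 TRG segments from TRGVA to TRGV1, 8 were tested for MS41 in SEMK2, with log2 fold changes from -0.25 to 0.73 and adjusted p-values from edgeR of 0.5304 or higher. SEMK2 did contain another receptor transcript, TRAC, for the alpha chain, at 97.7 CPM with DMSO and 101 with MS41, while CD3D, CD3E and CD3G were under 0.1 CPM in both groups.

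**Figure D3:**
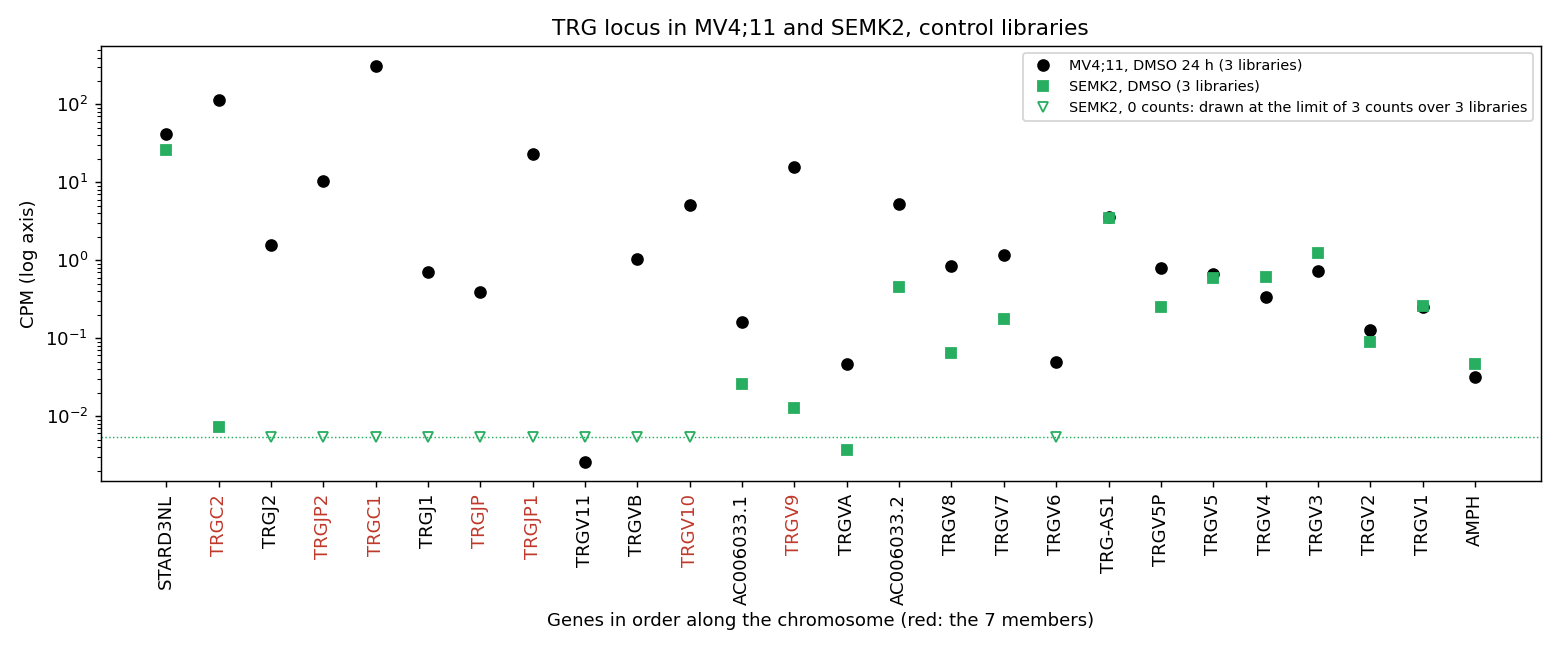
CPM of unscaled totals (log axis) of the locus genes in chromosomal order in the DMSO libraries of MV4;11 at 24 h (circles) and of SEMK2 (squares). Open triangles mark SEMK2 genes with 0 counts, drawn at the limit of 0.00545 CPM; members are named in red, and 9 TRG segments in a row from TRGJ2 to TRGV10 have no SEMK2 count.

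Within MV4;11 the response to MS41 at 24 h differed along the locus. Of the other 14 TRG segments 12 passed the low-count filter. Of these, 3 were called lower and 2 higher, where 22.9% of all genes were called lower and 21.4% higher. The counts are near these shares, and nothing is read from them. The lower ones were TRGJ1 at -1.71 (SE 0.237, adjusted p = 3.802e-08), TRGJ2 at -0.93 (SE 0.164, adjusted p = 5.266e-06) and TRGVB at -0.67 (SE 0.21, adjusted p = 0.007261), whose DMSO and MS41 libraries overlapped. The higher ones were TRGV7 at 0.75 (SE 0.169, adjusted p = 0.0002464) and TRGV8 at 0.51 (SE 0.194, adjusted p = 0.02862). In chromosomal order the 10 tested segments from TRGC2 to TRGV9, the 7 members among them, were all called lower (22.9% of all genes). Of the 9 tested from TRGVA to TRGV1 none was called lower and 8 had values above 0. This division was drawn after the values were seen and has no test.

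The other genes at the locus were called higher or not called. AC006033.2, a non-coding RNA between TRGV9 and TRGV8, was called higher at 0.55 (SE 0.0758, adjusted p = 3.317e-08). TRG-AS1 stood at 0.075 (SE 0.104, adjusted p = 0.6116), and STARD3NL was called higher at 0.16 (SE 0.0382, adjusted p = 0.0004488). With the ENL guides the 10 tested segments from TRGC2 to TRGV9 had log2 fold changes from -0.91 to -0.09. The 4 called lower were the members TRGC1, TRGJP1, TRGV9 and TRGV10, where 4.98% of all genes were called lower. The 10 tested from TRGVA to TRGV1 had values from 0.25 to 1.54 with adjusted p-values from edgeR of 0.08539 or higher. The division is the same one, drawn from the MS41 values, and was not tested.

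**Figure D4:**
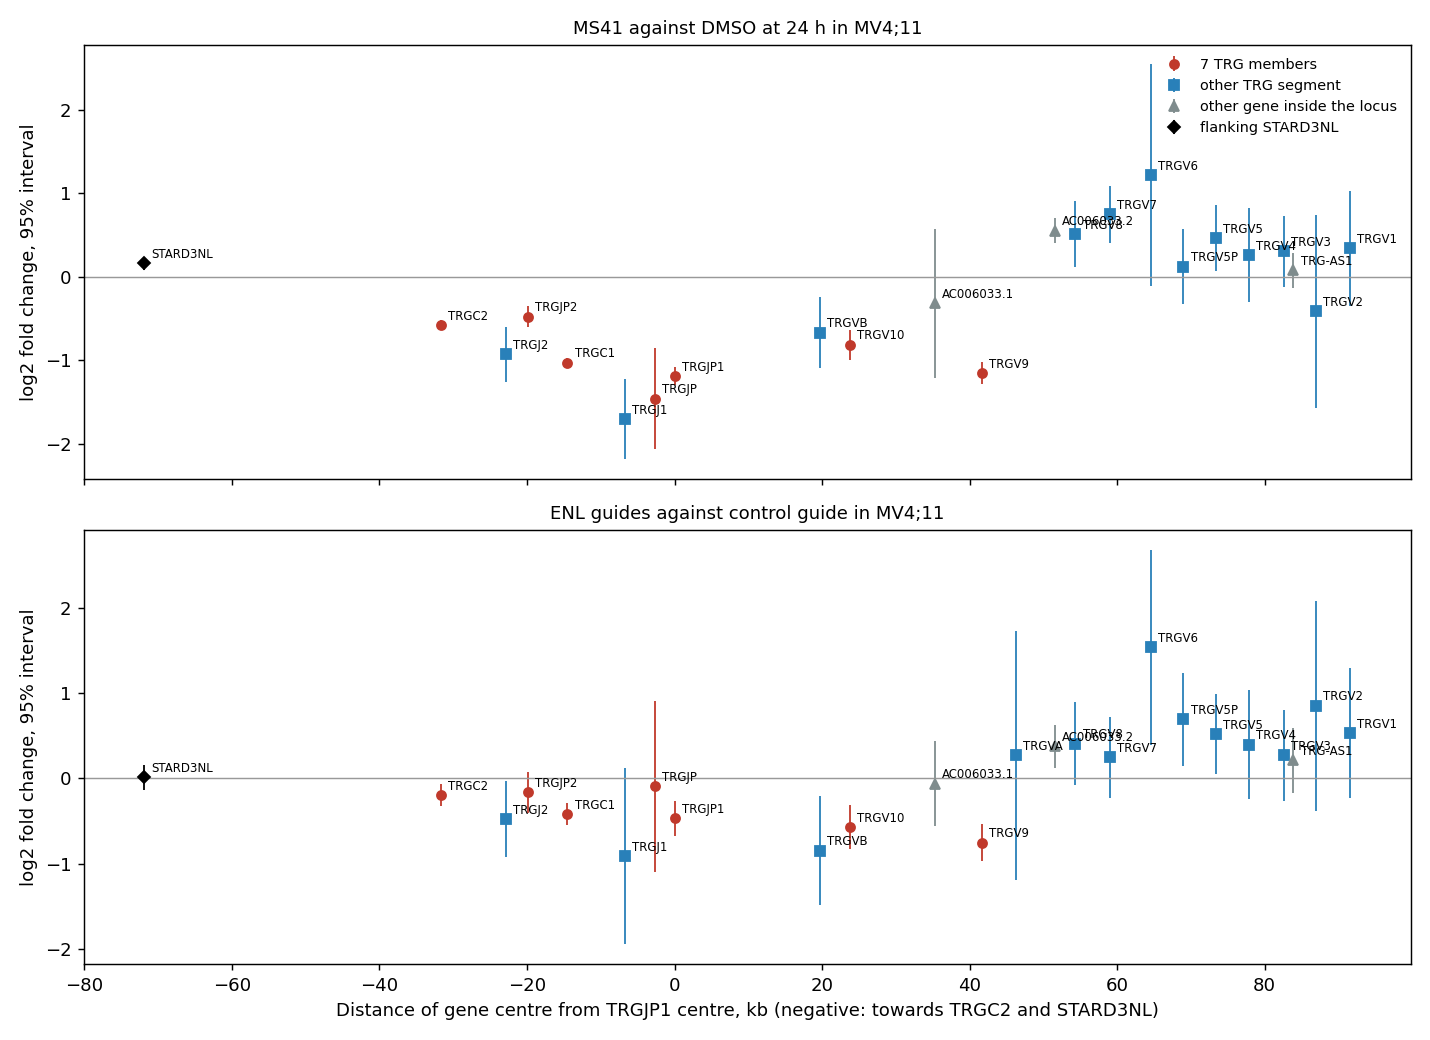
Log2 fold change with 95% interval (y axis) against the distance of each tested gene from TRGJP1 in kb (x axis), for MS41 at 24 h (upper panel) and for the ENL guides (lower panel). Segments from TRGC2 to TRGV9 have values below 0 in both panels, and STARD3NL stands at 0.16 and 0.017.

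The 2 cassettes kept different shares of their level. For every 100 TRGC1 counts there were 36.2 ± 0.796 TRGC2 counts (SD, n = 3) with DMSO at 24 h and 49.5 ± 1.57 with MS41, without overlap between the libraries. TRGJP2 counts per 100 TRGJP1 counts were 45.7 ± 2.17 with DMSO and 74.6 ± 3.77 with MS41, again without overlap. The exact two-sided permutation test gave p = 0.1 for each, the smallest value that 3 against 3 libraries allow, and 0.15 after Benjamini-Hochberg adjustment over 24 ratio tests. With MS41N at 24 h the values were 38.2 ± 0.159 and 47.8 ± 3.29, and with PFI-6 they were 39.1 ± 0.416 and 50.3 ± 0.851. Against DMSO the first ratio did not overlap with MS41N either, nor did both ratios with PFI-6, and each of these 3 tests gave the same exact permutation p of 0.1 (0.15 adjusted). What differed was the size: on the log2 scale the first ratio was higher than with DMSO by 0.45 with MS41, 0.077 with MS41N and 0.11 with PFI-6, and the second by 0.71, 0.064 and 0.14.

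In the guide libraries TRGC2 counts per 100 TRGC1 counts were 31.8 and 35.5 with the control guide, 39.0 and 40.5 with guide 1, and 37.5 and 40.2 with guide 2. For 4 against 2 libraries the exact two-sided permutation p was 0.06667, the smallest possible, and 0.15 after adjustment. That test pools the libraries of both guides as if they were replicates of 1 condition. In vivo the libraries overlapped, at 67.7 ± 2.40 with vehicle and 68.1 ± 2.20 with MS41 (exact permutation p = 0.8). The in vivo test does not use the replicate number, by which these values appear adjusted. Reads shared by the near-identical constant exons limit the first ratio, and the second rests on joining exons that share no 50-base stretch.

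**Figure D5:**
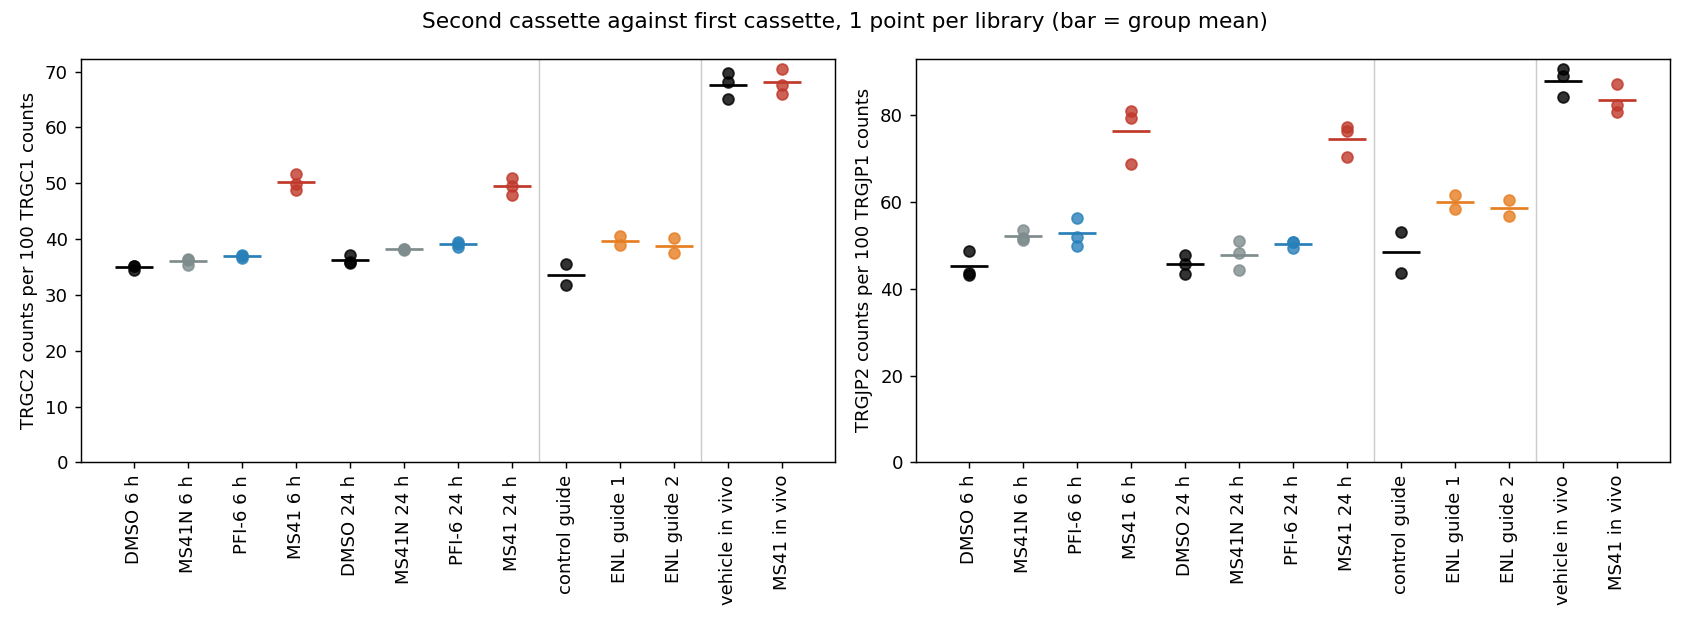
TRGC2 counts per 100 TRGC1 counts (left) and TRGJP2 counts per 100 TRGJP1 counts (right), with 1 point per MV4;11 library and a bar at the group mean, y axes starting at 0. In culture the MS41 libraries lie above all other compound libraries in both panels, and in vivo the vehicle and MS41 libraries overlap.

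The other genes of the pathway are given for MS41 at 24 h, where 22.9% of all genes tested were called lower and 21.4% higher. Of 16 factors known to act on the TRG locus, such as the interleukin-7 receptor and its signalling chain and lymphoid transcription factors, 15 passed the low-count filter, 5 were called lower and 6 higher. Their median log2 fold change was 0.12, against 0.024 over all genes. The called genes of highest mean level were MYB, a haematopoietic transcription factor, at -0.59 (SE 0.0256), IKZF1 (Ikaros) at -0.25 (SE 0.0227), RUNX1 at -0.066 (SE 0.0236) and CBFB, the partner of RUNX proteins, at -0.22 (SE 0.0341). JAK3, a kinase of interleukin-7 signalling, was called higher at 1.79 (SE 0.213), from 0.467 to 1.61 CPM. IL7R itself was at 0.12 (SE 0.0574, adjusted p = 0.08962). JAK3 and IL7R were named after their values were seen.

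Of 12 recombination genes, 10 passed, 3 were called lower and 2 higher, shares near those over all genes (22.9% and 21.4%), with a median of -0.11. HMGB1, a DNA-bending cofactor of the recombinase, stood at -0.20 (SE 0.0246), XRCC5 at -0.30 (SE 0.0222), XRCC6 at -0.33 (SE 0.0234) and HMGB2 at 0.12 (SE 0.0317). XRCC5 and XRCC6 encode the Ku proteins of end joining. Of the 9 genes for other receptor chains and CD3, 3 passed (TRAC, the alpha constant segment, at -1.53 with an adjusted p of 0.2039). The 9 summed to 0.195 to 0.406 CPM with DMSO and 0.272 to 0.356 with MS41.

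Of 20 T and NK cell markers 9 passed, none was called lower, and 2 were called higher, a share near the 21.4% over all genes: CD4, which monocytic cells also carry, at 0.29 (SE 0.027) and NKG7 at 1.09 (SE 0.0807). They summed to 234.5 to 236 CPM with DMSO and 281.5 to 305.1 with MS41, of which CD4 made up 227.8 and 278 CPM, and CD2 and CD8B were at 0 in both groups. The part of these markers in the TRG values was not tested.

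Over the 24 MV4;11 compound libraries the other members followed TRGJP1 with Pearson correlations of log2 CPM of 0.992 (TRGC1), 0.974 (TRGC2), 0.956 (TRGV9), 0.941 (TRGJP2), 0.926 (TRGV10) and 0.862 (TRGJP). These libraries share the MS41 groups at both times and include those on which TRGJP1 was chosen, so the correlations are descriptions. Outside the locus, among 13019 genes with a mean of at least 1 CPM, the 5 most like TRGJP1 were ERLIN1 (0.989), an endoplasmic reticulum membrane protein, CXorf21 (0.989), PITX1 (0.986), HOXA9 (0.986), a homeobox gene central to MLL-fusion leukaemia, and CDKN1B (0.982), a cell cycle inhibitor. The order depended on the libraries used. Over the 12 libraries at 24 h HOXA9 ranked 18 (0.994) and ERLIN1 ranked 133 (0.988), and the first 5 were BAHCC1, MRTO4, POLR1A, NCS1 and AGMAT, at 0.996 to 0.997.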

How the data were processed

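RNA was measured by sequencing in 42 libraries of 15 groups, assigned by sample title and treatment labels. Per the submitters' processing notes the authors used CASAVA 1.8, HISAT2 2.1.0 and HTSeq 0.11.3 with hg38. The counting mode and strand setting are not given in the sources used here. A read that spans a joining and a constant exon touches 2 genes, so those settings decide whether and where it was counted. The deposited compound, guide and SEMK2 values are raw counts per gene. The deposited in vivo values are whole numbers entered as estimated counts, because they appear adjusted by replicate number, a step that no label describes: the median SD across numbers of the mean log2 CPM of same-numbered vehicle and MS41 libraries was 0.00206 over 9081 genes, against 0.0291 to 0.0471 for the 5 other matchings.

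Genes were filtered with filterByExpr, scaled by TMM and fitted per table by edgeR 4.0.16 (R 4.3.3), quasi-likelihood with robust dispersions. All 24 compound libraries shared 1 fit, and the in vivo fit had the replicate number as a term, a choice made with this pattern known. Biological coefficients of variation were 4.78% (compounds), 9.21% (guides), 11% (SEMK2) and 13.0% (in vivo). Ratios were compared by exact permutation. The fitting script was tested on simulated data. All 58721 identifiers matched GENCODE 29, 45 as second copies of pseudoautosomal genes. Named genes were the 7 members, other TRG genes, flanking genes within 500 kb, the 5 genes most correlated with TRGJP1, and up to 4 called genes of highest mean CPM per list. Members, lists and rules were chosen with earlier results of these data known. DESeq2 1.42.0, other scalings, no filter, the replicate block, fits of the compared groups and leaving out each library were alternatives. Figures used matplotlib 3.10.9.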

Additional observations from a re-analysis of the deposited data

How the results depend on the processing

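Of 1019 alternative values, 934 were counted as the same, 48 lost a call, or a count fell further, 37 gained one, and none reversed a called direction. Those counted as the same include 12 uncalled values that crossed 0. They also include small changes of a count, such as from 4 calls to 3. For guide 2, upper-quartile factors and a fit of only the groups compared each left 2 members called, with TRGJP1 at -0.41 and -0.42. Without the low-count filter TRGJP1 stood at -0.15 for PFI-6 against DMSO. PFI-6 against MS41N at 6 h gave 1 call without the filter, with a replicate block and with DESeq2. In vivo there were 4 calls without the filter, 4 with DESeq2 and 5 with no replicate block, where TRGJP1 at -0.32 was called. Leaving out 1 library gave TRGJP1 values of -0.57 to -0.35 for both guides, -0.62 to -0.40 for guide 1, -0.53 to -0.31 for guide 2 and -0.18 to -0.13 for PFI-6 against DMSO. It gave 2 to 3 calls for guide 1, 0 to 3 for guide 2, 0 for PFI-6 against MS41N at 24 h and 0 to 3 in vivo. Where this left 1 library in a guide group, it is assumed to vary like the other groups. The cause of these changes was not tested.

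Same-numbered libraries did not all deviate together (correlations -0.18 to 0.17 for compounds and SEMK2, 0.52 for guide 1 and -0.023 for guide 2), so the main fits have no replicate block outside the in vivo table. With the replicate block 1634 genes were lower and 1569 higher for both guides (896 and 957 without it), and 329 and 333 in SEMK2 (111 and 180). In vivo 7 and 0 genes were called with the block, 250 and 273 without it, 109 and 75 without the filter, and 49 and 31 with DESeq2. Guide 1 gave 564 and 782, 1238 and 1340 with the block, 961 and 1343 without the filter, and 294 and 655 with only the groups compared. Guide 2 gave 316 and 572, 845 and 1087 with the block, 722 and 1113 without the filter, 572 and 767 with DESeq2, and 183 and 487 with only the groups compared. SEMK2 gave 345 and 415 with DESeq2 and 487 and 425 without the filter. MS41N against DMSO gave 4 and 4, 43 and 35 with DESeq2, and 47 and 36 without the filter. PFI-6 against MS41N at 24 h gave 14 and 10, 99 and 75 with DESeq2, 112 and 50 with only the groups compared, 115 and 74 without the filter, and 37 and 15 with upper-quartile factors. PFI-6 against MS41N at 6 h gave 3 and 0, 14 and 6 without the filter, 14 and 11 with DESeq2, 4 and 1 with the block, and 1 and 0 with RLE factors, upper-quartile factors or only the groups compared. Single libraries moved these counts further. SEMK2 gave 1694 and 1292 without DMSO replicate 3 and 31 to 58 lower without any other library. Leaving out 1 library gave 311 to 1511 genes lower for both guides, 155 to 1237 for guide 1 and 52 to 1037 for guide 2, the highest without control guide replicate 1 each time and the lowest without ENLsg2 replicate 2, ENLsg1 replicate 2 and ENLsg2 replicate 2. It gave 811 to 1300 for PFI-6 against DMSO (lowest without DMSO replicate 3), 0 to 7 for MS41N, 0 to 11 for PFI-6 against MS41N at 24 h and 0 to 33 in vivo. The shares of all genes printed beside the members move with them. Upper-quartile factors moved the lower share of calls from 50 to 36.4% for MS41N and from 58.3 to 71.2% for PFI-6 against MS41N. Depth limits TRGJP, at 11 to 19 counts per guide library.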

Other observations

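Other genes within 500 kb of the TRG segments also differed after 24 h of MS41. GPR141, an orphan G-protein-coupled receptor gene on the side of TRGC2, measured 0.0938, 0.232 and 0.173 CPM with DMSO and 5.10, 5.60 and 5.76 with MS41, a log2 fold change of 5.03 (SE 0.263, adjusted p = 5.488e-21 by edgeR). With the control guide it measured 0.0948 and 0.213 CPM and with the ENL guides 0.746 to 1.55, a log2 fold change of 2.83 (SE 0.408, adjusted p = 0.001087 by edgeR). In vivo vehicle libraries were already at 1.92 to 2.49 CPM, and MS41 libraries stood at 2.12 to 2.71.

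NME8, on the same side, had 0, 0 and 5 counts with DMSO at 24 h and 134, 103 and 85 with MS41, and was called higher. EPDR1 was called lower at -0.32 (SE 0.0513), and VPS41, a vesicle tethering protein beyond TRGV1, higher at 0.31 (SE 0.0294). With PFI-6 at 24 h the adjusted p-values of these 4 genes from edgeR were 0.05852 to 0.5835.

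The proportions of the TRG transcripts also differed between the MV4;11 tables. TRGV9 counts per 100 TRGC1 counts were 4.97 ± 0.432 (SD, n = 3) with DMSO at 24 h, 7.36 and 9.36 with the control guide and 12.3 ± 1.00 (SD, n = 3) with vehicle in vivo. TRGC2 counts per 100 TRGC1 counts were 36.2, 33.7 and 67.7 as means of the same groups. The in vivo libraries were made with another kit, and kit and setting cannot be told apart.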
